A study of Schizosaccharomyces pombe with 4 samples.

Results

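Glycolysis in fission yeast was followed here through 10 genes that encode the enzymes from phosphoglucose isomerase to pyruvate kinase: pgi1, pfk1, fba1, tpi1, tdh1, gpd3, pgk1, gpm1, eno101 and pyk1. They were taken by name, and the intervals that fell in their annotated bodies and in 500 bp on each side were described, out of 5113 protein-coding genes in the annotation of Schizosaccharomyces pombe. The measurement was chromatin immunoprecipitation with sequencing of RNA polymerase II whose C-terminal repeats carry phosphate on serine 5 (Ser5P). It was made in a mutant labelled ABP1d, written abp1Δ below, in which the CENP-B homolog Abp1 is removed, and in wild-type cells. Cells of both genotypes grew exponentially in YES, a rich medium that holds glucose, and were fixed with 1% formaldehyde for 15 min, and chromatin was sheared to 250 to 400 bp. The labels give 1 ChIP sample and 1 input per genotype, and name a kit sold for RNA for the libraries. Strain background and number of clones were not given in the labels.

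Each genotype thus rests on a single unreplicated list of intervals, and no difference between genotypes was tested: all values are those of the lists alone. Each interval carries a score set by the authors, whose unit is not stated and whose lowest value was 200 in both lists. A base is called covered when an interval holds it. An uncovered base may still carry polymerase below that level, read depth is unknown, and whether the lists were scaled alike is not given. A difference in covered length or score between genotypes therefore cannot be told apart from one in depth or scaling. The abp1Δ list held 2851 intervals over 249934 bp and the wild-type list 3242 over 227413 bp. The deleted gene itself (SPBC1105.04C, chromosome II, 3510427 to 3512370, minus strand) had no covered base in either list, so it did not check the genotype labels.

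Glycolysis converts glucose to pyruvate in the cytoplasm. Its upper steps isomerise, phosphorylate and cleave the sugar, and its lower steps oxidise the resulting trioses and pass their phosphate groups to ADP, which yields ATP. In yeasts that ferment on glucose these enzymes are among the most abundant proteins of the cell, and their genes are strongly transcribed. Ser5 phosphorylation is placed on polymerase at initiation and is found through early elongation. In compact yeast genes it can extend over much of the transcribed length.

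The 10 genes fell into 3 patterns. The bodies of 7 genes, fba1, tpi1, tdh1, pgk1, gpm1, eno101 and pyk1, were covered over at least 87.6% of their length in abp1Δ and 90.7% in wild type. The upper-pathway genes pfk1 and pgi1 had scattered short pieces with scores of at most 252, pgi1 in abp1Δ alone. In gpd3, the second gene for glyceraldehyde phosphate dehydrogenase, the covered bases lay within the coding sequence, which is 93.2% identical to that of tdh1. An interval fell in the body of 10 of the 10 genes in abp1Δ, against 7.12% of all protein-coding genes, and of 9 in wild type, against 7.18%. At least 90% of the body was covered in 6 of the 10 in abp1Δ and in 7 in wild type, while over all protein-coding genes these shares were 0.704% in abp1Δ and 0.587% in wild type. The gene that separates the counts is tpi1. The genes were chosen with earlier results of these data known, so these shares, and those below, describe the genes and test nothing.

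**Figure D1:**
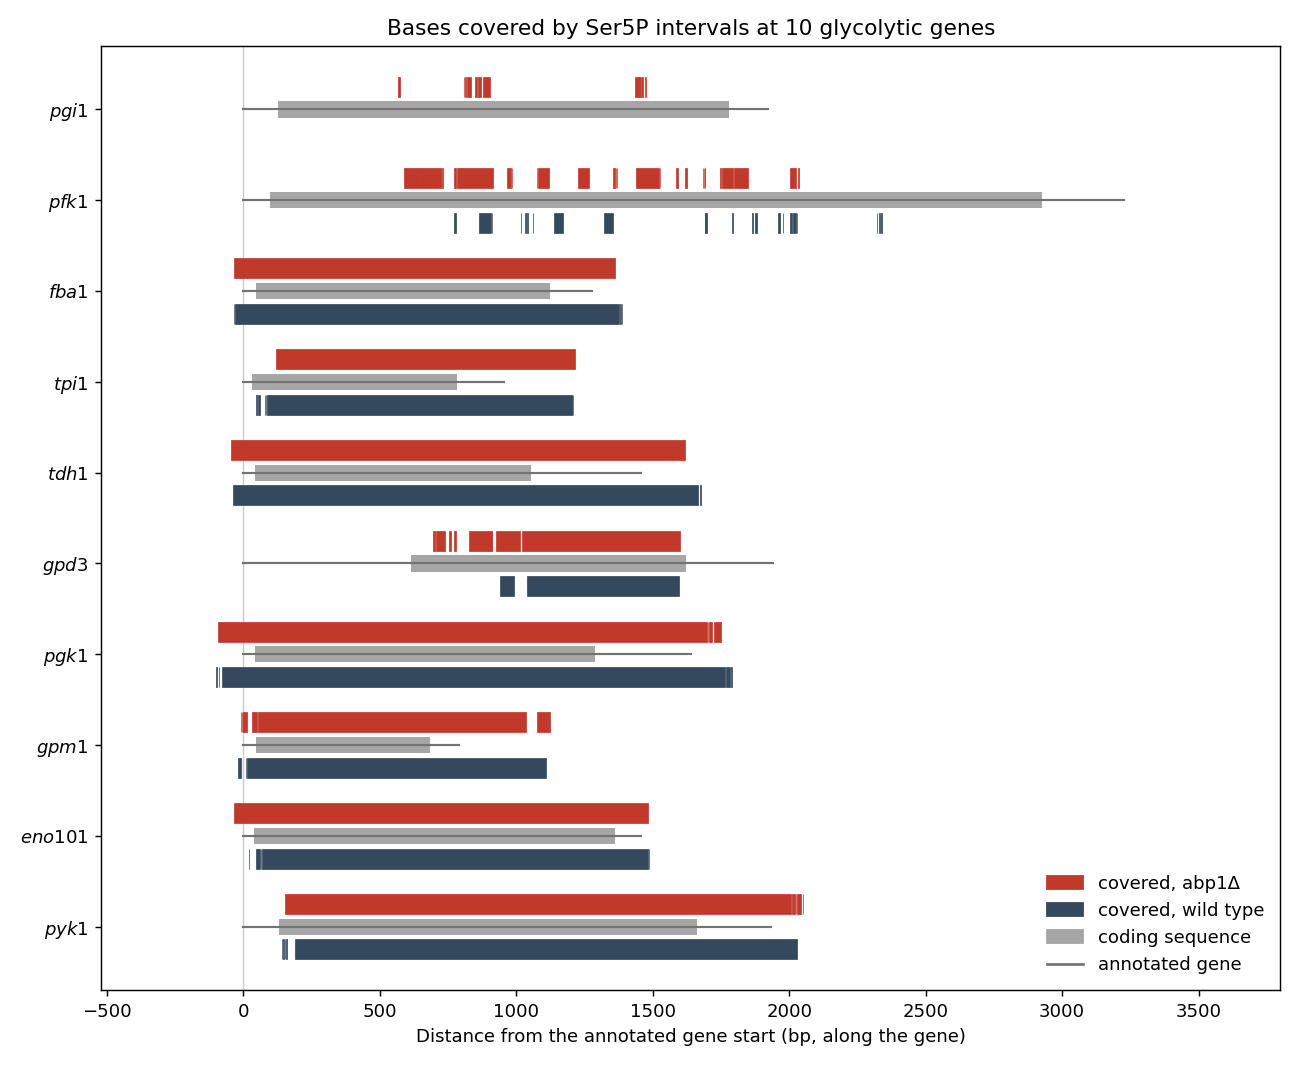
Each of the 10 genes is drawn from its annotated start (0) along its own strand in bp, with the bases covered in abp1Δ above the gene and those covered in wild type under it. The blocks of fba1, tdh1 and pgk1 span the whole gene in both lists, pfk1 and pgi1 hold short pieces only, and gpd3 is covered inside its coding sequence alone.

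The sequence just before the annotated starts is shown first. In both lists coverage began before the start in fba1, tdh1 and pgk1, and inside the gene in pyk1 and pfk1. The DNA from 60 bp before to 20 bp after the start is given 5′ to 3′ on the gene's strand for 5 genes, read from RefSeq assembly ASM294v3. Capitals mark every match to TATAAA or TATATA on that strand that lies whole between 60 and 20 bp before the start, the letters of a TATA box.
fba1: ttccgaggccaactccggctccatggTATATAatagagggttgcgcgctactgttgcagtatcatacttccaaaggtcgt
tdh1: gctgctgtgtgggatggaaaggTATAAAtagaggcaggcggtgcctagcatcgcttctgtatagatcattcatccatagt
pgk1: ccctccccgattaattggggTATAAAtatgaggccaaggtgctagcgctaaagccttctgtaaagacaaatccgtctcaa
pyk1: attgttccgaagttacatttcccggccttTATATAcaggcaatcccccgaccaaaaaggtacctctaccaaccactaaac
pfk1: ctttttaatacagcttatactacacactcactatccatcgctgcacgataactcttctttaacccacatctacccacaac
These windows lie at chrII:1688261-1688340 (plus strand), chrII:2807535-2807614 (plus), chrII:4159442-4159521 (minus), chrI:3846656-3846735 (minus) and chrII:2300372-2300451 (minus).

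In 9 of the 10 genes such a match was found, beginning 31 bp (pyk1) to 40 bp (tpi1, pgk1 and eno101) before the start, and pfk1 was the exception. Of 5112 protein-coding gene starts with a full window, 12.3% held one. TATATA reads the same on both strands, matches may overlap, and this window and the second motif were chosen after the sequences were seen. TATAAA on either strand anywhere from 250 bp before to 50 bp after the start was present in 5 of the 10 genes, against 48.1% of all. CCAAT was present in 4 of the 10, against 42.2%, and the HomolD box CAGTCACA in 1, tpi1, against 2.68%. A match is a description of the letters and not of a bound factor. Coverage and motif did not run in parallel: pgi1 has TATATA 33 bp before its start and had almost no covered bases. A match was also present in gpd3, tpi1 and pyk1. In both lists these genes had no covered base in the 5′ untranslated region or in the 500 bp before the start.

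The 10 genes also shared other features that did not enter their choice. Of the 10, 7 lie on chromosome II, which holds 36.5% of protein-coding genes, 2 on chromosome I and 1 on chromosome III. The annotation gives 9 of them a single exon, as it does 51.7% of protein-coding genes, and gpd3 has 2. Their median GC content was 47.4%, above the 36.8% of all protein-coding genes and the 40.3% of the 412 genes with an interval in either list. Within the genes that were covered only in part, the covered bases had the higher GC content in 6 of 6 genes in abp1Δ and in 6 of 6 in wild type. The same held for 73.2% of all partly covered protein-coding genes in abp1Δ and 70.3% in wild type. Covered bases ran from 44.9 to 54.7% GC in abp1Δ and from 44.5 to 54.7% in wild type, against 30.9 to 46.0% and 31.5 to 46.1% for uncovered bases of the same genes. The part of base composition in the coverage was not tested.

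The pathway begins with pgi1, which encodes phosphoglucose isomerase (SPBC1604.05, chromosome II, 3921659 to 3923580, minus strand, coding bases 127 to 1779). In abp1Δ 98 of its 1922 bp were covered, and in wild type 0. The abp1Δ bases lay in 12 pieces of at most 26 bp, from base 568 to base 1476 of the gene, all within the coding sequence. Their highest score was 236, which ranked pgi1 309th of 364 genes. With no replicate, pieces this short do not show a difference in polymerase at pgi1.

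Phosphofructokinase, the product of pfk1, catalyses the committed step of glycolysis (SPBC16H5.02, chromosome II, 2297164 to 2300391, minus strand, coding bases 98 to 2926). It is the longest of the 10 genes at 3228 bp. Covered bases numbered 601 in abp1Δ and 178 in wild type, or 18.6% and 5.51% of the gene. They were broken into 30 pieces in abp1Δ and 22 in wild type, of which 12 and 6 were 1 bp wide, and the widest piece was 113 bp in abp1Δ and 44 bp in wild type. All lay in the coding sequence, from base 591 to 2035 in abp1Δ and from base 775 to 2342 in wild type. The lists had only 66 of these bases in common, 11% of those in abp1Δ and 37.1% of those in wild type. The highest score was 252 in abp1Δ and 232 in wild type, and by highest score pfk1 ranked 290th of 364 genes in abp1Δ and 316th of 367 in wild type. The annotation places 2 antisense long non-coding RNA genes over pfk1, and 1 each over pgi1, fba1, gpd3, pgk1, gpm1 and pyk1. How common such overlap is among all protein-coding genes was not counted, so it is not a trait of these genes. ChIP does not show the strand.

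Cleavage of fructose bisphosphate is the work of the aldolase gene fba1 (SPBC19C2.07, chromosome II, 1688321 to 1689599, plus strand, coding bases 47 to 1123). Every one of its 1279 bases was covered in both lists by a single unbroken piece. That piece reached 35 bp before the start in abp1Δ and 31 bp in wild type, and ran 80 bp past the end in abp1Δ and 98 bp in wild type. Its score was 1206 in abp1Δ and 1318 in wild type. Ranked by highest score among protein-coding genes, fba1 stood 21st of 364 in abp1Δ and 12th of 367 in wild type.

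The isomerase of the trioses, encoded by tpi1 (SPCC24B10.21, chromosome III, 939913 to 940869, plus strand, coding bases 33 to 782), was covered less in abp1Δ, at its start. Of its 957 bp, 838 (87.6%) were covered in abp1Δ and 881 (92.1%) in wild type. In abp1Δ a single piece began at base 120. In wild type small pieces began at base 49 and the main one at base 87, with 203 to 208 as the scores of the small ones. Every base covered in abp1Δ was covered in wild type, and 43 bp were covered in wild type alone. The end was fully covered in both lists, and the main piece went on for 258 bp past it in abp1Δ and 246 bp in wild type. Of the neighbour pog1, which begins there, 13 bp were covered in abp1Δ and 3 bp in wild type. The highest score was 710 in abp1Δ and 603 in wild type.

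Oxidation of glyceraldehyde phosphate is encoded by tdh1 and gpd3, and they looked unlike in both lists. The tdh1 gene (SPBC32F12.11, chromosome II, 2807595 to 2809051, plus strand, coding bases 43 to 1053) was covered at each of its 1457 bases in 1 piece, which began 44 bp before the start in abp1Δ and 37 bp in wild type. It ran 157 bp past the end in abp1Δ and 210 bp in wild type. Its score of 1434 in abp1Δ and 1330 in wild type was the highest of the 10 genes in each list, and placed it 14th in abp1Δ and 11th in wild type among protein-coding genes. The gpd3 gene (SPBC354.12, chromosome II, 578117 to 580056, plus strand, coding bases 615 to 1622) had 801 of its 1940 bp covered in abp1Δ, or 41.3%, and 611 bp in wild type, or 31.5%. None of these bases lay in its long 5′ untranslated region, which includes an intron, none in its 3′ untranslated region, and none in its flanks. In abp1Δ the main pieces of gpd3 were bases 830 to 911, 926 to 1015 and 1024 to 1601, and in wild type they were bases 941 to 992 and 1040 to 1598. The wild-type bases were all covered in abp1Δ as well.

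The highest score of gpd3 came to 1431 in abp1Δ and 1250 in wild type, 3 below that of tdh1 in abp1Δ and 80 below it in wild type. A score of 1000 or more with under 50% of the gene covered was found at 8 of 40 genes with such a score in abp1Δ and at 6 of 26 in wild type, gpd3 among them in both lists. These are not all alike, since an interval that reaches into a gene gives it its score. In abp1Δ rbm8, efr3, rad26 and rlc1 had the same highest score as the adjacent genes tef102, tef101, atd1 and hsp90. In wild type the same held for rbm8 with tef102, rad26 with atd1 and sec5 with htb1. Beside gpd3 there remained ssa1 and grx4 in both lists and cpy1 in abp1Δ, so the trait was not particular to gpd3. Where the scores of ssa1, grx4 and cpy1 come from was not tested. The covered bases of gpd3 lay in its own coding sequence. Over all protein-coding genes 0.782% reached a score of 1000 in abp1Δ and 0.509% in wild type. Among the glycolytic genes 6 of 10 did in abp1Δ and 5 of 10 in wild type, where pgk1 had 964. Both counts include gpd3, whose score cannot be told apart from that of tdh1 in the sequence they share. One limit was applied to both lists here, so these counts are to be read against each list's own share and not against each other.

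The coding sequences of tdh1 and gpd3 were therefore laid side by side from their start codons, over 1008 bases and with no gap. They were identical at 939 of them, or 93.2%. The first 100 coding bases are shown, since they are the least alike of the 100-base windows, with capitals at the 17 positions that differ. The windows lie at chrII:2807637-2807736 (tdh1) and chrII:578731-578830 (gpd3), both on the plus strand.
tdh1: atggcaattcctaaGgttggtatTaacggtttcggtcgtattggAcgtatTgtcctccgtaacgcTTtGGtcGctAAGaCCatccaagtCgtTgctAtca
gpd3: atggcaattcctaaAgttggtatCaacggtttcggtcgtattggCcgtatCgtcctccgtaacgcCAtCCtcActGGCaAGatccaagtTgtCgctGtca
The longest stretch that is identical in both genes has 203 bases, gpd3 bases 1191 to 1393 (chrII:579307-579509) and tdh1 bases 619 to 821 (chrII:2808213-2808415). It is shown because a read from inside it matches both genes equally well.
shared: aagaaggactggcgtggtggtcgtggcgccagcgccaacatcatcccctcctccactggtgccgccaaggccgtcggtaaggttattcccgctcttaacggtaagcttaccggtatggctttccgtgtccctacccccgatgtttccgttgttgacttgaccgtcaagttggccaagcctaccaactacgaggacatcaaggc

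Coverage of gpd3 was set beside this likeness in windows of 100 coding bases. In coding bases 1 to 100, 83 were identical, and 12 bp of gpd3 were covered in abp1Δ and 0 in wild type. In the next 100 bases 90 were identical, and 38 bp of gpd3 were covered in abp1Δ and 0 in wild type. From base 201 to 300, 88 were identical, and 83 bp were covered in abp1Δ and 0 in wild type. Wild-type coverage thus began after the 3 least alike windows, and abp1Δ coverage within them. From base 301 to 400, 92 were identical, and 89 bp were covered in abp1Δ and 52 in wild type. From base 401 to 500, 95 were identical, and 92 bp were covered in abp1Δ and 75 in wild type. The 4 windows from base 501 to 900, with 96 to 100 identical bases each, were covered whole in both lists. From base 901 to 1000, again with 96 identical bases, coverage was 87 bp in abp1Δ and 84 bp in wild type. It ended there, at base 1601 of the gene in abp1Δ and base 1598 in wild type. Of the last 8 coding bases compared, 5 were identical and 0 were covered in either list. Whether likeness to tdh1 bears on the coverage was not tested. The stretches of gpd3 built from 25-mers that also occur in tdh1 made up 568 bases, from base 750 to 1578. Of these 548 were covered in abp1Δ and 491 in wild type. Outside them lay 253 of the covered bases of gpd3 in abp1Δ and 120 in wild type, at most 53 bp away in abp1Δ and 25 bp in wild type. With 36-mers or 50-mers in place of 25-mers the farthest covered base was 233 bp away in abp1Δ and 41 bp in wild type. Read length is not given, so none of these lengths is known to fit the reads. Laid side by side with no gap, the 42 bases before the start codon were 26.2% identical. In gpd3 most of these lie in the intron, since its exon 2 begins at base 609, so the value does not compare untranslated regions alone. The first 100 bases past the stop codon were 27% identical. Over the same coding bases tdh1 was covered without a gap in both lists. How reads with several matches were placed is not given in the sources used here, so the reads of gpd3 and tdh1 cannot be told apart within these stretches, and neither can their scores. No 25-mer of the other 8 genes was repeated anywhere in the genome, on either strand.

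**Figure D2:**
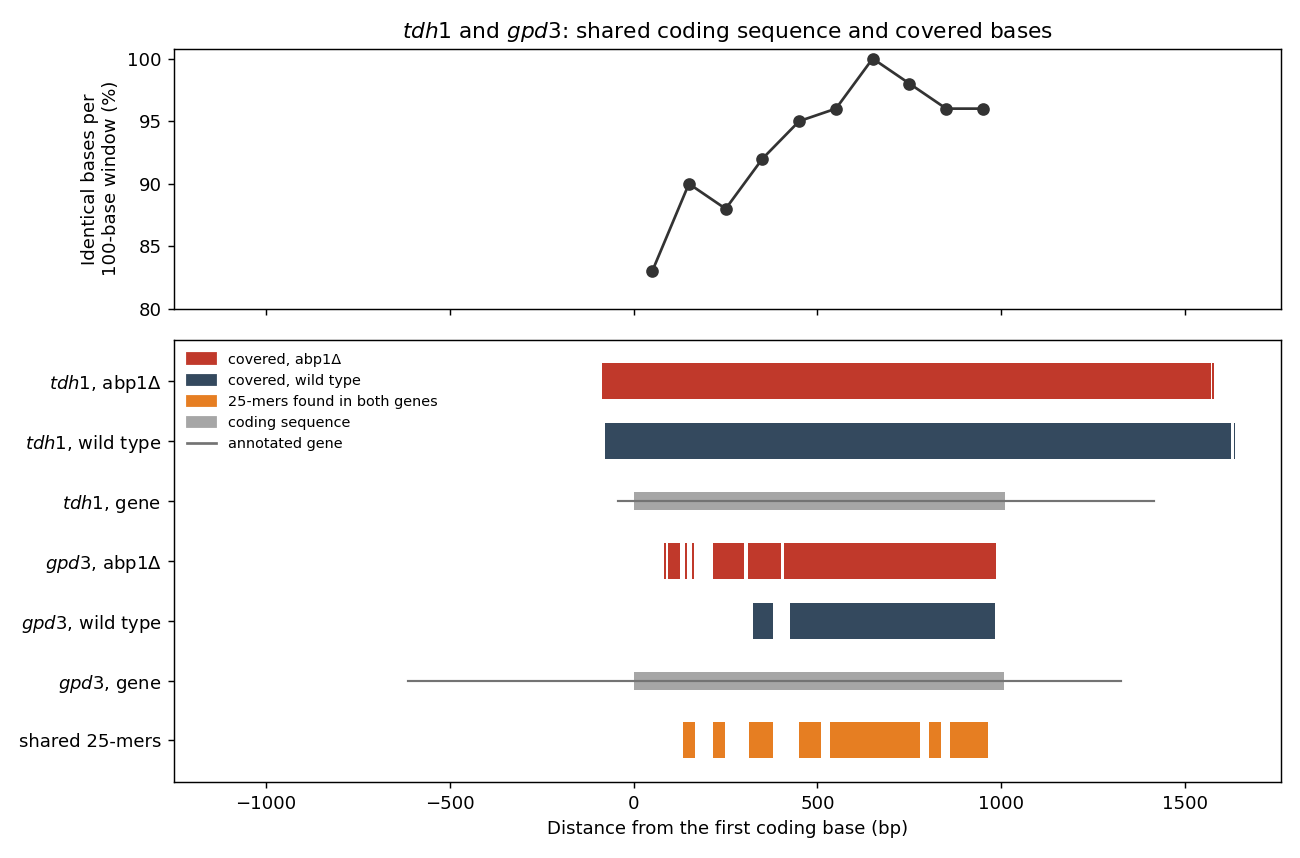
The upper panel plots the percent of identical bases in 100-base windows of the tdh1 and gpd3 coding sequences against the distance from the first coding base, and the lower panel draws covered bases of each gene in each list, the annotated genes and the 25-mers found in both. Covered bases of gpd3 lie within its coding sequence, in abp1Δ also in its less alike first 300 bases where wild type has none, while tdh1 is covered from before its start to past its end.

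Phosphoglycerate kinase, the first ATP-yielding enzyme of the pathway, is encoded by pgk1 (SPBC14F5.04C, chromosome II, 4157821 to 4159461, minus strand, coding bases 46 to 1290). All of its 1641 bases were covered in both lists. Of the 10 genes it had the farthest coverage before the start: the unbroken piece began 93 bp before it in abp1Δ and 77 bp in wild type, and small pieces took the wild-type coverage out to 98 bp. Past the end the unbroken piece reached 58 bp in abp1Δ and 124 bp in wild type. The score was 1344 in abp1Δ, place 4 of the 10 genes, and 964 in wild type, place 6.

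Phosphoglycerate mutase moves the phosphate group within phosphoglycerate, and its gene gpm1 (SPAC26F1.06, chromosome I, 5173864 to 5174654, minus strand, coding bases 48 to 683) is the shortest of the 10 at 791 bp. Of these, 773 bp (97.7%) were covered in abp1Δ and 779 bp (98.5%) in wild type, with 761 bp in common. Its first 60 bases and the 40 bp before them (chrI:5174595-5174694, minus strand) are shown with the covered bases in capitals, because both lists break into pieces there.
abp1Δ: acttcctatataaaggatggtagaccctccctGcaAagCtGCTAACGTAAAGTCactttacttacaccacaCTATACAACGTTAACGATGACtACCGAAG
wild type: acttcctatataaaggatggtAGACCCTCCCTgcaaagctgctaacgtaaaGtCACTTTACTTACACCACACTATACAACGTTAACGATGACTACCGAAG
The unbroken body of gpm1 began at base 54 in abp1Δ and at base 14 in wild type. Some of these first bases also belong to the gene mug106, which overlaps gpm1 by 30 bp on the same strand and was covered over 17 bp in abp1Δ, against 29 bp in wild type. Past its other end gpm1 had the most covered bases of the 10 genes, 291 bp in abp1Δ and 317 bp in wild type, of which 246 and 317 bp were unbroken from the gene. An antisense long non-coding RNA gene overlaps gpm1, and its part in this coverage was not tested. The highest score was 742 in abp1Δ and 783 in wild type.

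Enolase makes phosphoenolpyruvate, and its gene eno101 (SPBC1815.01, chromosome II, 2201196 to 2202652, plus strand, coding bases 42 to 1361) differed between the lists at its start. The 1457 bases were covered in full in abp1Δ, and 1403 of them, 96.3%, in wild type. The DNA from 60 bp before to 90 bp after the start (chrII:2201136-2201285, plus strand) is given for each list, again with covered bases in capitals.
abp1Δ: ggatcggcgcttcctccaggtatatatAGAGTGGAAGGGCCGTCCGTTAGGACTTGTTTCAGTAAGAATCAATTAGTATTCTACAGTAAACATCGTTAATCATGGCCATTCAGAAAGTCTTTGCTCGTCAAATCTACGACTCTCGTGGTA
wild type: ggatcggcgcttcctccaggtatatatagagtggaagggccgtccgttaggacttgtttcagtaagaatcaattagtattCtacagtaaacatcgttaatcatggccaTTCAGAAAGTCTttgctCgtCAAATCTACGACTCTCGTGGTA
In abp1Δ the piece began 33 bp before the start and ran unbroken through the gene. In wild type 1 base at position 21, a piece from base 49 to 60 and 1 base at position 66 came before the main piece at base 69, with scores of 200 to 235. Of the 41 bases before the start codon 41 were thus covered in abp1Δ and 1 in wild type. Past the end the main piece stopped at the same base in both lists, 27 bp beyond the gene. The score was 1251 in abp1Δ and 1145 in wild type. The paralog eno102, which has no 25-mer in common with eno101, had no covered base in either list.

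Pyruvate kinase, the last enzyme and the second that yields ATP, is encoded by pyk1 (SPAC4H3.10C, chromosome I, 3844743 to 3846675, minus strand, coding bases 134 to 1663). Of its 1933 bp, 1781 (92.1%) were covered in abp1Δ and 1754 (90.7%) in wild type, and 1750 bp were common to both. Neither list covered its 133 bp 5′ untranslated region. Coverage began at base 153 in abp1Δ, and in wild type small pieces began at base 142 and the main one at base 190. The unbroken piece went 75 bp past the end in abp1Δ and 94 bp in wild type. The score was 1377 in abp1Δ and 1062 in wild type, place 3 of the 10 genes in abp1Δ and place 5 in wild type.

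**Figure D3:**
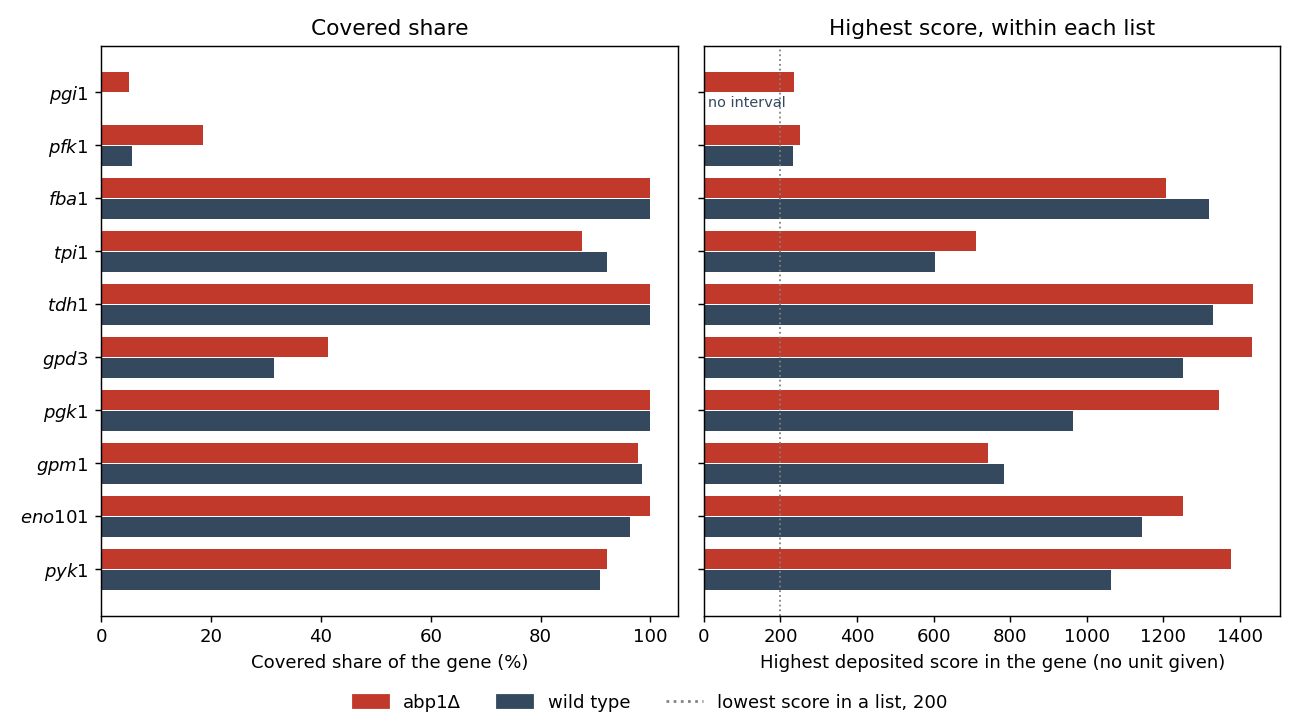
For each of the 10 genes the left panel gives the covered percent of the annotated gene and the right panel the highest deposited score in it, with abp1Δ above wild type. All genes but pgi1, pfk1 and gpd3 are covered over at least 87.6% in abp1Δ and 90.7% in wild type, and gpd3 joins a score near that of tdh1 to a covered share of 41.3% in abp1Δ and 31.5% in wild type.

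Ordered by score, tdh1 led both lists, gpm1, tpi1 and pfk1 followed each other at the low end of both, and the genes between them changed places. In abp1Δ the order from the highest was tdh1, gpd3, pyk1, pgk1, eno101, fba1, gpm1, tpi1, pfk1 and pgi1. In wild type it was tdh1, fba1, gpd3, eno101, pyk1, pgk1, gpm1, tpi1 and pfk1. The gene fba1 thus took place 6 in abp1Δ and place 2 in wild type. With 1 list per genotype no spread can be set beside these places. The place of gpd3 rests on a score that cannot be told apart from that of tdh1.

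**Figure D4:**
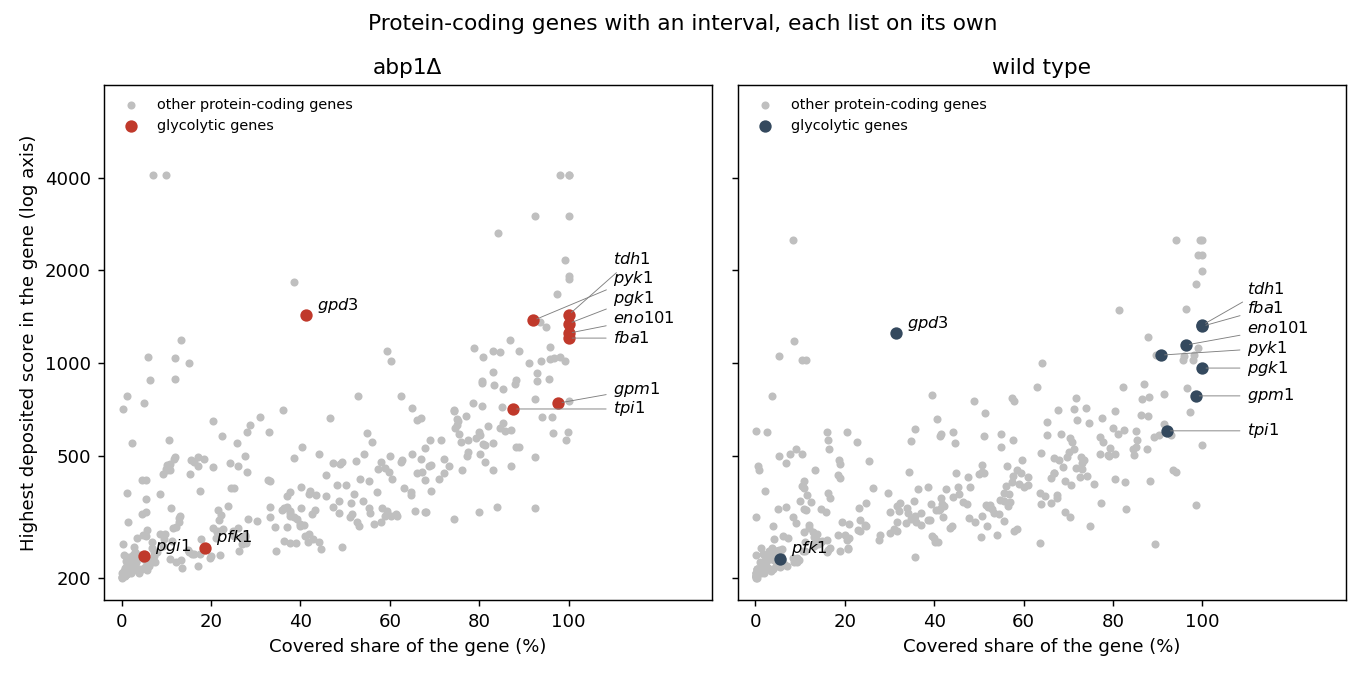
Each point is a protein-coding gene with an interval in that list, placed by the covered percent of the gene and by its highest score on a log axis, with abp1Δ left of wild type. The 7 fully or nearly fully covered glycolytic genes sit at the upper right of both panels, pfk1 near the lowest score of 200, and gpd3 above a score of 1000 at a covered share of 41.3% in abp1Δ and 31.5% in wild type.

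Coverage in the flanks lay mostly past the gene ends, though eno101 and pgk1 had more of it before the start in abp1Δ. The annotated last base was covered in 7 of the 10 genes in both lists, against 2.29% of all protein-coding genes in abp1Δ and 1.88% in wild type. The annotated first base was covered in 5 genes in abp1Δ (fba1, tdh1, pgk1, gpm1 and eno101), against 0.587% of all, and in 3 in wild type (fba1, tdh1 and pgk1), against 0.567%. Over the 10 genes, 208 bp were covered in the 500 bp before the starts in abp1Δ and 163 bp in wild type. In the 500 bp past the ends 1010 bp were covered in abp1Δ and 1144 bp in wild type. By gene, 5 of the 7 with coverage past the end had less of it in abp1Δ, against 42.8% of the 138 protein-coding genes covered at and past their last base in either list, among them pgk1 with 88 bp in abp1Δ and 143 bp in wild type and tdh1 with 162 and 213 bp. The exceptions were tpi1, with 258 bp in abp1Δ and 248 bp in wild type, and pyk1, with 103 and 94 bp. Before the start, 4 of the 5 genes with coverage there had more in abp1Δ, against 51.3% of the 39 protein-coding genes covered at and before their first base in either list, and gpm1 had less, 3 bp in abp1Δ and 11 bp in wild type. These distances are shorter than or near the sheared fragment length of 250 to 400 bp, so a position is no finer than that.

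**Figure D5:**
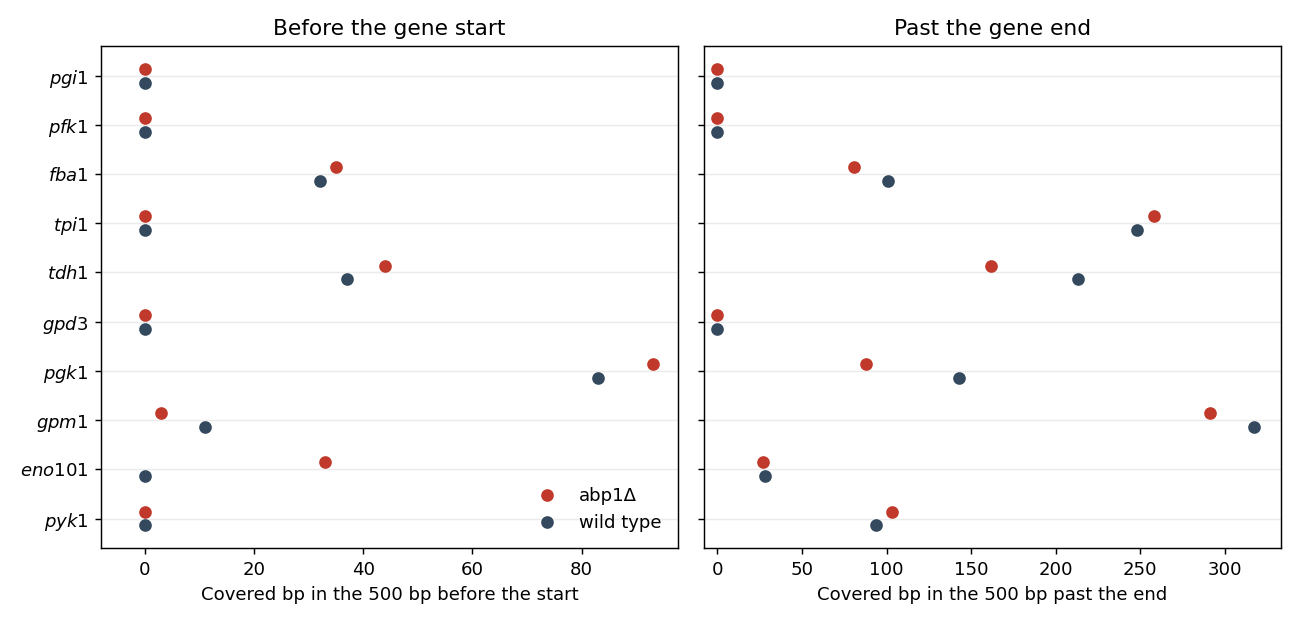
Points give, for each of the 10 genes, the covered bp within 500 bp before the annotated start (left) and past the annotated end (right), with abp1Δ above wild type. Values before the start run from 0 to 93 bp, and those past the end from 0 to 317 bp, the widest being gpm1 in wild type.

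Summed over the 10 gene bodies, 10726 of 16605 bp (64.6%) were covered in abp1Δ, against 9983 bp (60.1%) in wild type. That was 4.29% of all bases covered in the abp1Δ list and 4.39% of those in the wild-type list. The lists had 9806 of these bases in common, 91.4% of the abp1Δ and 98.2% of the wild-type bases. More bases were covered in abp1Δ in 5 of the 10 genes, a share near the 54.4% of the 412 genes with an interval in either list. In 2, tpi1 and gpm1, fewer were covered in abp1Δ, and in 3, fba1, tdh1 and pgk1, the numbers were equal. Of the 412 genes, 179 had fewer covered bases in abp1Δ and 9 had equal numbers, so the members' split into fewer and equal differed from that of the 412. The median difference (abp1Δ minus wild type) was 13.5 bp over the 10 genes and 10 bp over the 412. The sum of 743 bp more in abp1Δ lay mainly in pfk1 (423 bp), gpd3 (190 bp) and pgi1 (98 bp). Without these genes the remaining 7 had 9226 bp covered in abp1Δ and 9194 bp in wild type, a difference of 32 bp, and 99.0% of the abp1Δ bases and 99.3% of the wild-type bases were in common.

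Intervals were also counted at other genes of sugar metabolism. Of 13 other genes listed for glycolysis and fermentation 10 could be matched to the annotation, and 2 of these had an interval in the body in abp1Δ and 3 in wild type, beside 7.12% and 7.18% of all protein-coding genes. The fermentation genes adh1 (alcohol dehydrogenase) and pdc101 (pyruvate decarboxylase) were covered over most of their length. The covered shares of pdc101 in both lists and of adh1 in wild type were below those of the 7 covered glycolytic genes. Their highest scores lay within the range of those 7 genes. They were 1128 in abp1Δ and 1060 in wild type at adh1, and 849 and 766 at pdc101. In adh1 1531 bp (95.8% of the gene) were covered in abp1Δ and 1432 bp (89.6%) in wild type, and in pdc101 1570 bp (83.4%) in abp1Δ and 1627 bp (86.4%) in wild type. The hexokinase gene hxk2 was bare in abp1Δ and covered over 692 bp in wild type, with a highest score of 309, while hxk1 was bare in both lists. So were the enolase gene eno102, the other pyruvate decarboxylase genes pdc102, pdc201 and pdc202, adh4, and fbp1, whose fructose bisphosphatase works in gluconeogenesis. Of 7 genes listed for the pentose phosphate pathway, which branches off before pgi1, 1 had intervals: tkt1, which encodes transketolase, covered over 1553 bp in abp1Δ and 777 bp in wild type. Its highest score of 393 in abp1Δ and 344 in wild type was well under those of the 7 covered glycolytic genes, which began at 710 in abp1Δ and 603 in wild type.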

How the data were processed

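Per the submitters' processing notes, the authors aligned reads with Bowtie 0.12.5. Not given in the sources used here are the peak caller, genome build, scaling, use of inputs and placement of multiply matching reads. Each deposited list names chromosome, start and end, and its last column is the authors' score per interval. It was ranked within a list, and where a fixed score limit was applied to both lists the outcome depends on their unknown scaling. Inputs were not analysed here. Depth is unknown, so no interval for counting error was computed.

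Coordinates were set against RefSeq assembly ASM294v3. Protein-coding genes held 90.4% of covered bases in abp1Δ and 89.6% in wild type, but no more than 79.8% and 78.7% after shifts of 1000 to 10000 bp, so positions were read on that assembly. Covered bp, first and last covered base, spread within 500 bp and highest score were computed per gene with Python 3.11.15 and NumPy 2.4.6. The computation was tested on 200 made-up genes, all recovered. Shared sequence was counted in 25-, 36- and 50-mers on both strands. The genes and lists were chosen with earlier results of these data known; all 10 members were to be named, with listed pathway genes that had intervals. Alternatives were higher score limits, lists of equal length, other gene bounds and flanks, joined pieces, larger overlaps, single-copy bases and genes left out.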

Additional observations from a re-analysis of the deposited data

How the results depend on the processing

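The number of genes with an interval, 10 in abp1Δ and 9 in wild type, was 7 in both lists when 50% of the gene had to be covered and 8 in both with a score of at least 300. With the lists cut to equal length it was 9 in both. The covered sums were 8945 to 10628 bp in abp1Δ and 8229 to 9983 bp in wild type when each gene was left out in turn. The difference between the lists moved most. It was 743 bp in all, 171 bp with a score of at least 300 and 171 bp with at least 400, where 3 genes in place of 5 had more covered bp in abp1Δ. It was 199 bp with the abp1Δ list cut from its lowest scores to the wild-type length, 320 bp without pfk1, and 32 bp without pgi1, pfk1 and gpd3 (added after seeing the data). The limits of 300 and 400 exceed every score at pfk1 and pgi1. The cut to equal length kept scores from 244, and left a difference of 63 bp at pfk1 and 0 at pgi1. With only scores at or above each list's median of 206 the difference was 732 bp, 421 bp of it at pfk1. Joining pieces up to 100 bp apart turned the difference at pyk1 to -11 bp, and with flanks of 500 or 250 bp counted in, fba1, tdh1 and pgk1, equal in their bodies, had differences of -17, -44 and -45 bp. Bases whose 50-mers occur once held 9866 bp covered in abp1Δ and 9136 bp in wild type. No paired analysis was possible because each genotype has 1 list.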
